A study of Mus musculus with 6 samples.

Results

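The tetraspanins described here are 8 genes of a family of small membrane proteins, chosen by name: Cd9, Cd37, Cd53, Cd63, Cd81, Cd82, Cd151 and Tspan7. All 8 were present among the 17385 protein-coding genes of the count table, each on 1 row. All 8 also passed the filter on low counts, which left 13937 genes for testing. RNA sequencing measured their mRNA in hippocampi of 5xFAD and wild-type (WT) mice at an age of 3 months, with 3 libraries per group. The study calls these biological replicates, and the sources used here do not say whether each came from 1 mouse. The labels do not give sex, and the study describes the mice both as female and as male and female littermates. The 5xFAD mice carried human APP with the Swedish, Florida and London mutations together with human presenilin-1 with familial mutations, expressed from the murine Thy-1 promoter, which is active mainly in neurons. The WT mice carried no transgene. The animals of both groups were perfused with saline, and the comparison asks which hippocampal mRNAs differ at an early stage of the model.

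Tetraspanins cross the membrane 4 times and hold partner proteins, among them integrins, immunoglobulin-family receptors and the protease ADAM10, in clusters known as tetraspanin-enriched microdomains. They act in cell adhesion, in fusion, in receptor trafficking and in the making of extracellular vesicles, for which CD9, CD63 and CD81 are the usual marker proteins. Cd37 and Cd53 are restricted to leukocytes, which in the brain means chiefly microglia. The other members are widely expressed: Cd9 is found in oligodendrocytes, astrocytes and microglia, Cd63 sits in late endosomes and lysosomes of most cells, Cd81 is abundant in glia, Cd82 and Cd151 occur in glia and vessels, and Tspan7 is strongly expressed in neurons.

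The leukocyte-restricted pair rose in 5xFAD hippocampus and the broadly expressed members did not pass the test. Cd53 rose 2.39-fold and Cd37 rose 2.31-fold. Cd9 was 1.46-fold higher and just missed the threshold, while Cd63, Cd81, Cd82, Cd151 and Tspan7 lay between 0.842-fold and 1.14-fold of WT. The 2 calls among 8 members, both higher, compare with 0.667% of all genes tested that passed as higher in 5xFAD, 0.0933% that passed as lower and 0.761% in either direction (edgeR quasi-likelihood test with Benjamini-Hochberg adjustment over 13937 genes, threshold 0.05). Both were among the 0.531% of genes that passed and changed at least 2-fold. An unadjusted p under 0.05 was reached by 3 members, all higher, and by 9.87% of all genes in that direction. The median log2 fold change was 0.17 over the 8 members and -0.0062 over all genes tested.

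The promoters of the pair that rose are shown beside that of Cd9, the next largest fold change, because the leukocyte-restricted genes share a short run of letters near the start site that Cd9 lacks. Sequences are from RefSeq on GRCm38.p6, run 5' to 3' in the direction of the gene and span 180 bases before to 20 bases after the annotated start site. In GENCODE M21, used for gene coordinates below, Cd37 spans 45233632 to 45239115, so the stretch printed for Cd37 lies within that gene. The start site of Cd37 thus differs between the annotations, and positions here refer to that of RefSeq. Capitals mark GAGGAA, the core of sites bound by PU.1, the Ets factor of macrophages and microglia, or its longer form GAGGAAGT. Matches on the opposite strand read TTCCTC and ACTTCCTC.
Cd53, minus strand, chr3:106790130-106790329: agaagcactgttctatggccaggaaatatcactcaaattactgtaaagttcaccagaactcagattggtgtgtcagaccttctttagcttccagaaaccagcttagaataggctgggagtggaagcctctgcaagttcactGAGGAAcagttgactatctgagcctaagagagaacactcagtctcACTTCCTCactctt
Cd37, minus strand, chr7:45238820-45239019: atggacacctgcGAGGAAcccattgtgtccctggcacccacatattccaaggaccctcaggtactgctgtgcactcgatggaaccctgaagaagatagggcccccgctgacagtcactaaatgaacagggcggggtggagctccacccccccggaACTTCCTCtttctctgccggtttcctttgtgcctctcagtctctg
Cd9, minus strand, chr6:125494741-125494940: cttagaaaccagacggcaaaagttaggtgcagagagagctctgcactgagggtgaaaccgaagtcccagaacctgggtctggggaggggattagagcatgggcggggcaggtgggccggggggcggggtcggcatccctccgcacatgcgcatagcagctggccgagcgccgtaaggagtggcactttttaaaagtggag

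GAGGAAGT stood on the opposite strand in both leukocyte-restricted promoters, where its reverse complement ACTTCCTC begins at position 7 after the start site in Cd53 and at -25 in Cd37. Windows of 300 bases, from 250 before to 50 after each RefSeq start site, were searched on both strands for all 8 members, which have 12 such windows. GAGGAAGT contains GAGGAA, so each longer match is also a shorter one. GAGGAAGT was found in 3.20% of the 32851 windows of this length in the table, and among the members in Cd53, Cd37 and 1 of the 4 windows of Cd82. GAGGAA was found in 28.3% of all windows and in windows of 4 members, the same 3 and Cd63, each with matches at separate places. In Cd82, which did not pass the test, GAGGAAGT begins at -225. The same window of Cd82 holds GAGGAA on the opposite strand at -23, the position of that match in Cd37. Windows of Cd9, Cd81, Cd151 and Tspan7 held neither. The Ets-IRF composite element was found in 2.72% of windows and in none of the members. The windows held 4 CG dinucleotides in Cd53 and 8 in Cd37, with a median of 7 over all windows. Among the other members the number was 6 in Cd63, 18 in Cd9, 23 in Cd81 and 27 in Tspan7, and it lay between 4 and 16 in the windows of Cd82 and at 4 and 20 in those of Cd151, so it did not set the leukocyte-restricted pair apart. A match of letters is a description of the sequence and shows no binding.

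Total counts were 18997677 to 23873280 per library, and Thy1, whose promoter drives the transgenes, was at 2378 to 3315 CPM in 5xFAD against 812 to 886 CPM in WT, in keeping with the labels (CPM is the count scaled to the effective size of its library). The libraries were not alike in composition. In 5xFAD replicates 1 and 2 GC-rich transcripts read low and GC-poor transcripts high: across genes, GC content of the transcript and the shift of the library away from the average WT level had a Spearman correlation of -0.54 and -0.67 there, -0.074 in 5xFAD replicate 3 and between -0.060 and 0.065 in WT. Each WT library is itself part of that WT average, so the WT and 5xFAD correlations are not on the same footing. Genes are not independent replicates, so these correlations are a description of the libraries. Member values are therefore given also with a GC and length term, a correction fitted in each library, and for 5xFAD replicate 3 alone. The groups did not overlap in 28.3% of all genes tested, with 5xFAD above in 13.2% and below in 15.1%, so separation of the groups is not in itself unusual in these data. Among the members 3 were above without overlap and none below.

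Cd53 encodes a pan-leukocyte tetraspanin (ENSMUSG00000040747, chromosome 3, 106759921 to 106790149, minus strand, GRCm38). Its counts were 439, 441 and 418 in 5xFAD replicates 1 to 3, against 216, 173 and 184 in WT replicates 1 to 3. In CPM it stood at 20.7, 24.7 and 17.0 in 5xFAD, against 9.60, 8.01 and 8.40 in WT. Every 5xFAD library lay above every WT library, and the lowest of the 5xFAD values, in replicate 3, was still well clear of the highest WT value. The log2 fold change was 1.26 (SE 0.16, edgeR quasi-likelihood test, adjusted p = 0.0205), which ranked the gene 44 of 13937 by p. Its transcript is GC-poor, with 40.0% GC, and its highest value fell in the library with the strongest GC trend.

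Cd37 encodes a tetraspanin best known from B lymphocytes, where in mice it limits immune signalling (ENSMUSG00000030798, chromosome 7, 45233632 to 45239115, minus strand). It was the scarcest member, with counts of 172, 115 and 205 in 5xFAD, against 70, 83 and 65 in WT. The CPM values were 8.12, 6.44 and 8.33 in 5xFAD, against 3.11, 3.84 and 2.97 in WT. The groups did not overlap, and here replicate 2 was the lowest 5xFAD library, the reverse of Cd53. The log2 fold change was 1.21 (SE 0.19, edgeR adjusted p = 0.0372), rank 82 by p. The Cd37 transcript is GC-rich, with 57.3% GC.

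**Figure D1:**
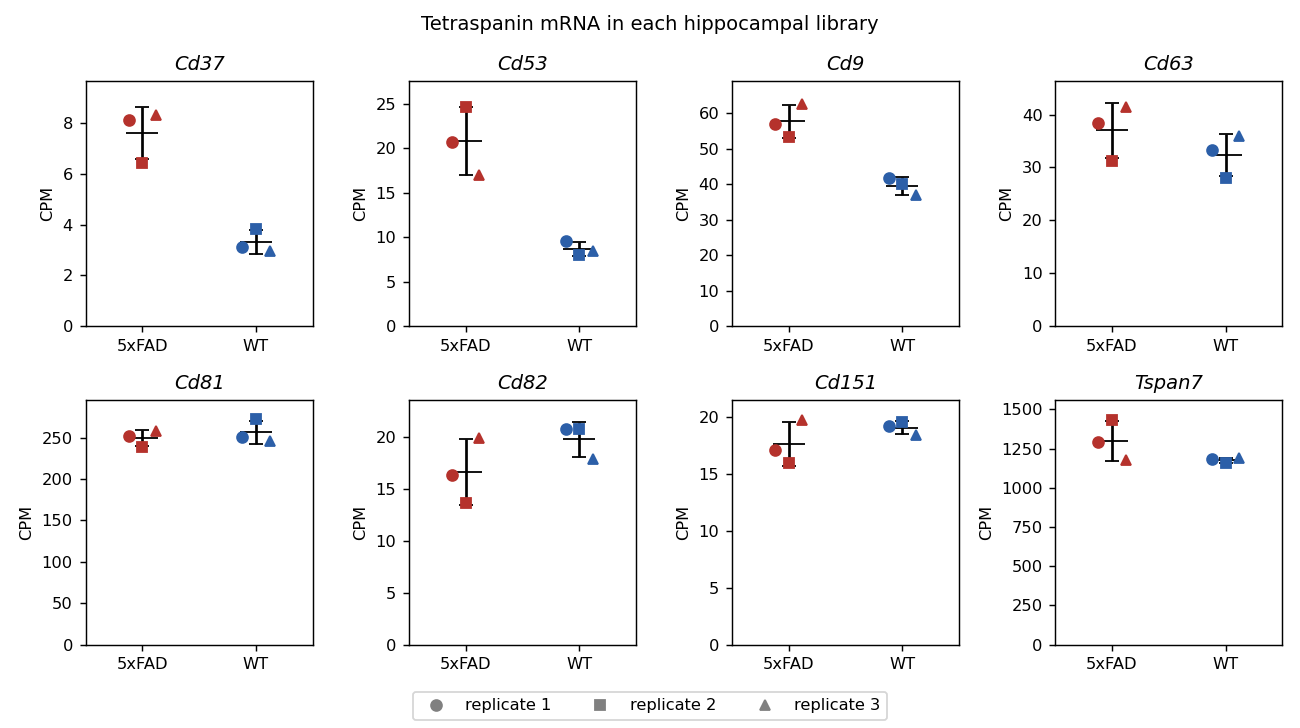
CPM of each of the 8 tetraspanins (vertical axes, starting at 0) in the 3 5xFAD and 3 WT libraries, with one marker shape per replicate number and the group mean ± SD as black bars. Cd37, Cd53 and Cd9 have every 5xFAD library above every WT library, and the other 5 panels overlap.

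With the GC and length term the 5xFAD libraries lay closer together for both genes and stayed apart from WT. Corrected CPM of Cd53 was 18.9, 17.9 and 18.5 in 5xFAD, against 10.7, 9.12 and 9.18 in WT, and the log2 fold change was 0.93 (SE 0.10, edgeR adjusted p = 0.00459). Corrected CPM of Cd37 was 8.58, 8.23 and 7.81 in 5xFAD, against 2.87, 3.53 and 2.77 in WT, and its log2 fold change was then 1.42 (SE 0.16, adjusted p = 0.00485 by edgeR). The term thus lowered the fold change of the GC-poor gene, raised that of the GC-rich gene and changed neither call. In that fit 1.02% of genes passed as higher and 1.23% in either direction.

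**Figure D2:**
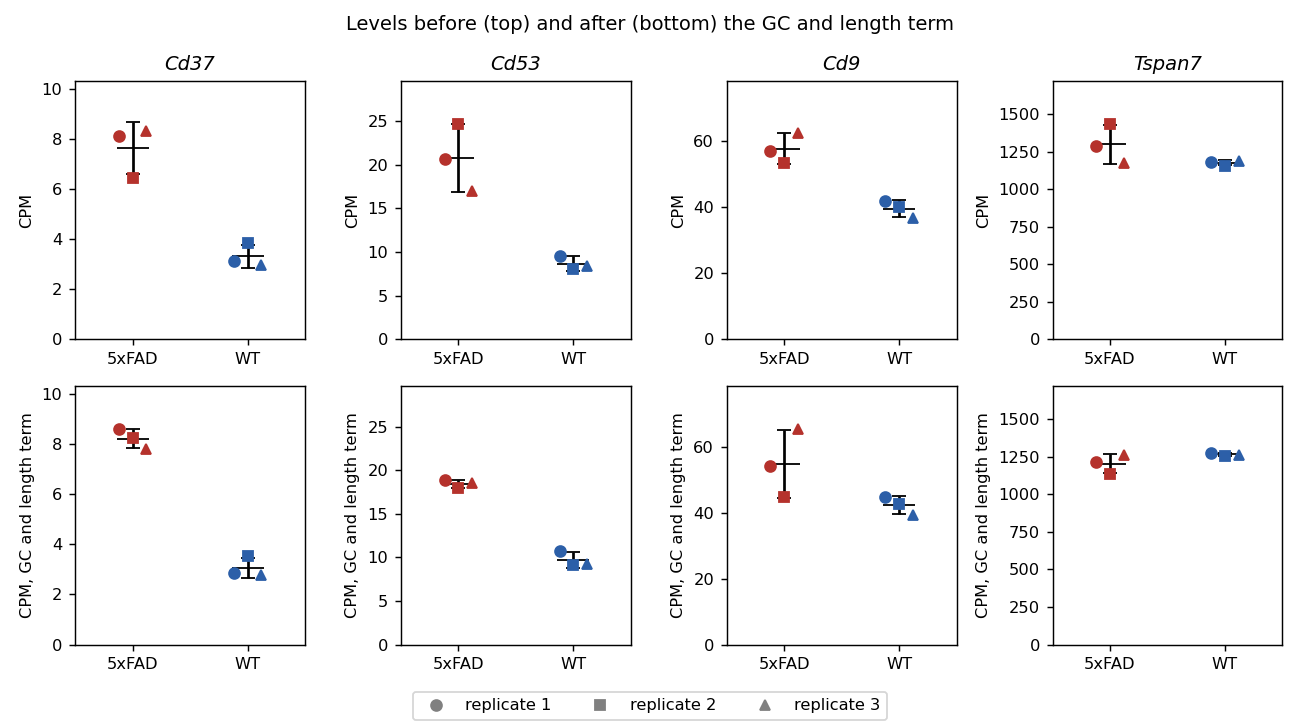
CPM of Cd37, Cd53, Cd9 and Tspan7 as scaled by library size (top row) and after the GC and length term (bottom row), by library, with the mean ± SD of each group (n = 3). After the term the 5xFAD libraries span 17.9 to 18.9 for Cd53 and 7.81 to 8.58 for Cd37, and those of Tspan7 span 1136 to 1260, beside 1258 to 1277 in WT.

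Without the correction both calls were lost in most fits that left out 1 library. The fits without 5xFAD replicate 1 or 1 of the WT libraries called only 12 to 20 of all genes, against 106 with all 6 libraries. Neither gene passed when 5xFAD replicate 1 or any one of the 3 WT libraries was left out: the adjusted p of Cd53 was then 0.111 to 0.132 and that of Cd37 was 0.122 to 0.269, while the log2 fold changes stayed at 1.2 or more for Cd53 and at 1.14 or more for Cd37. With the GC and length term Cd53 did not pass without 5xFAD replicate 1 (adjusted p = 0.0517), nor did Cd37 without 5xFAD replicate 1 (adjusted p = 0.0533) or WT replicate 1 (adjusted p = 0.0516). Against the WT libraries, 5xFAD replicate 3 alone, which carried little of the GC trend, gave a log2 fold change of 0.98 for Cd53 (edgeR adjusted p = 0.0405) and of 1.35 for Cd37 (adjusted p = 0.0614), with its spread assumed equal to that of the WT libraries.

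Most markers of microglia moved with Cd37 and Cd53. Of 9 microglial genes tested 7 rose, with a median log2 fold change of 0.79. The summed level of the list of 10 was 531 to 625 CPM in 5xFAD and 316 to 326 CPM in WT, though 1 of them, Csf1r, had only 1 to 11 counts per library. Of the 9 tested genes in the plaque-associated microglia list 5 rose, with a median of 1.52. The summed level of that list overlapped, at 956 to 1546 CPM in 5xFAD and 1267 to 1283 CPM in WT, most of it from Apoe. Apoe (log2 fold change -0.15) and Axl (0.12) overlapped between the groups, as did Tmem119 (-0.061) of the microglial list. Per 100 CPM of the microglial list, Cd53 stood at 3.53, 4.65 and 2.72 in 5xFAD, against 3.01, 2.53 and 2.58 in WT. Per 100 CPM of the same list, Cd37 stood at 1.38, 1.21 and 1.33 in 5xFAD, against 0.976, 1.22 and 0.912 in WT. Read against microglial markers, both genes had overlapping groups, through 5xFAD replicate 3 for Cd53 and 5xFAD replicate 2 for Cd37. The ratio of group means, 5xFAD over WT, was 1.34 for Cd53 and 1.27 for Cd37. These values are without the GC and length term. With that term the median log2 fold change of the microglial list was 0.65, beside 0.93 for Cd53 and 1.42 for Cd37. In bulk tissue more cells of a type and more RNA per cell cannot be told apart.

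Lymphocyte and blood myeloid markers were low in all 6 libraries. Of the B lymphocyte markers, Ms4a1 had at most 1 count in any library. Cd79a had 10, 1 and 8 counts in 5xFAD, against 13, 6 and 11 in WT (log2 fold change -0.62, SE 0.61, edgeR adjusted p = 0.541). Cd79b had 1, 9 and 3 counts in 5xFAD, against 1, 4 and 6 in WT. Both overlapped between the groups. The 4 T lymphocyte genes, Cd3d, Cd3e, Cd3g and Cd8a, had at most 1 count each in any library. The 4 monocyte and neutrophil genes summed to 0.283 to 0.448 CPM in 5xFAD and 0.411 to 0.533 CPM in WT. Border macrophage genes, 3 in all, had sums of 4.53 to 6.30 CPM in 5xFAD and 4.89 to 6.81 CPM in WT, and none of them passed. The 3 choroid plexus genes summed to 193 to 453 CPM in 5xFAD and 109.9 to 124 CPM in WT, with none of them past the threshold and 1 higher past it with the GC and length term, and their part in the member values was not tested.

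Cd9, a cell-surface and vesicle tetraspanin that is also among the genes raised in plaque-associated microglia in mice, was the third of the members in size of change (ENSMUSG00000030342, chromosome 6, 125460266 to 125494791, minus strand). Its counts were 1210, 953 and 1543 in 5xFAD, against 940, 866 and 807 in WT. It had 57.1, 53.3 and 62.7 CPM in 5xFAD, against 41.8, 40.1 and 36.9 CPM in WT, without overlap. The log2 fold change was 0.54 (SE 0.10, edgeR adjusted p = 0.0627), rank 122 by p where 106 genes passed. DESeq2 called Cd9 (adjusted p = 3.83e-04), as did the edgeR exact test (adjusted p = 5.96e-04), tests that called 2.38% and 2.61% of genes as higher and 3.64% and 4.10% in either direction. With the GC and length term the change was 0.38 (SE 0.13, edgeR adjusted p = 0.209), and corrected CPM of 54.1, 44.8 and 65.2 in 5xFAD only just cleared the 44.6, 42.7 and 39.2 in WT. In 5xFAD replicate 3 alone it was 0.68 (edgeR adjusted p = 0.0211).

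The cell types that express Cd9 did not move together. Summed astrocyte markers were at 6893 to 8298 CPM in 5xFAD against 5612 to 6060 CPM in WT, with 2 of 6 genes raised, among them Gfap. Most of that sum came from Slc1a2, at 4335 to 5625 CPM in 5xFAD and 3857 to 4247 CPM in WT. Slc1a2 did not pass (log2 fold change 0.29, edgeR adjusted p = 0.236). Of the 6 astrocyte genes 5 had a positive log2 fold change, and Aldh1l1 was at -0.23. After correction for GC content and length only Gfap was raised, and the median of the list went from 0.21 to 0.060. Summed oligodendrocyte markers were at 3723 to 3847 CPM in 5xFAD against 4279 to 5200 CPM in WT, with none of 6 genes past the threshold (edgeR, 4 at an unadjusted p under 0.05). Their part in the Cd9 values was not tested. Per 100 CPM of the microglial list Cd9 was at 9.73 to 10.1 in 5xFAD against 11.3 to 13.1 in WT. The list itself rose, so any gene that rose less is lower in 5xFAD on that scale. The ratio of group means, 5xFAD over WT, was 0.803 for Cd9. It was lower still for Cd63 (0.628), Tspan7 (0.616), Cd81 (0.538), Cd151 (0.508) and Cd82 (0.46). Per 100 CPM of Cd9, Cd53 stood at 36.3, 46.3 and 27.1 in 5xFAD, against at most 23.0 in WT. Per 100 CPM of Cd9, Cd37 stood at 14.2, 12.1 and 13.3 in 5xFAD, against 7.45, 9.58 and 8.05 in WT. Neither ratio overlapped between the groups. These ratios are a description, and the difference in fold change between members was not tested.

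Cd63, the tetraspanin of late endosomes, lysosomes and exosomes, is likewise listed among plaque-associated microglia genes in mice (ENSMUSG00000025351, chromosome 10, 128900989 to 128912822, plus strand). Its level was 38.4, 31.3 and 41.4 CPM in 5xFAD, against 33.2, 28.1 and 35.9 CPM in WT. The groups overlapped, and replicate 2 was the lowest library of both. The log2 fold change was 0.19 (SE 0.14, edgeR adjusted p = 0.411).

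Cd81, a partner of the EWI proteins and a regulator of glial cell number in mice, was almost level (ENSMUSG00000037706, chromosome 7, 143052739 to 143067934, plus strand). It had 253, 239 and 258 CPM in 5xFAD, against 251, 273 and 246 CPM in WT. The log2 fold change was -0.037 (SE 0.078, edgeR adjusted p = 0.781), the smallest in size of the 8. The SE was also the smallest among the members, and the fold changes under 25 other ways of processing ran only between -0.072 and 0.035. Among these the log2 fold change was -0.0065 with the GC and length term and 0.023 in 5xFAD replicate 3 alone.

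Cd82 and Cd151 leaned lower without passing. Cd82, a tetraspanin that restrains cell migration (ENSMUSG00000027215, chromosome 2, 93419111 to 93463140, minus strand), was at 16.4, 13.6 and 19.9 CPM in 5xFAD, against 20.8, 20.8 and 17.9 CPM in WT (log2 fold change -0.25, SE 0.15, edgeR adjusted p = 0.359). Cd151, which binds laminin-receptor integrins (ENSMUSG00000025510, chromosome 7, 141467392 to 141471473, plus strand), was at 17.1, 16.0 and 19.7 CPM in 5xFAD, against 19.3, 19.6 and 18.4 CPM in WT (log2 fold change -0.11, SE 0.11, edgeR adjusted p = 0.547). In both genes 5xFAD replicate 2 was the lowest library and 5xFAD replicate 3 was the highest 5xFAD library, within the WT range for Cd82 and just above it for Cd151. Both transcripts are GC-rich (55.3% and 54.4% GC), and with the GC and length term the log2 fold changes were -0.12 and -0.0079. In 5xFAD replicate 3 alone they were 0.025 and 0.066, the other direction.

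Tspan7, a neuronal tetraspanin that in rat neurons binds PICK1 and takes part in AMPA receptor traffic, had by far the highest counts (ENSMUSG00000058254, chromosome X, 10485158 to 10596605, plus strand). The levels were 1289, 1433 and 1174 CPM in 5xFAD, against 1183, 1155 and 1187 CPM in WT. WT libraries agreed closely while 5xFAD replicate 2 stood high. The log2 fold change was 0.14 (SE 0.088, edgeR adjusted p = 0.351), and 0.015 in 5xFAD replicate 3 alone. The transcript has 43.1% GC, and with the GC and length term the sign turned, to -0.071 (SE 0.057, adjusted p = 0.511), with corrected CPM of 1218, 1136 and 1260 in 5xFAD against 1277, 1258 and 1262 in WT.

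**Figure D3:**
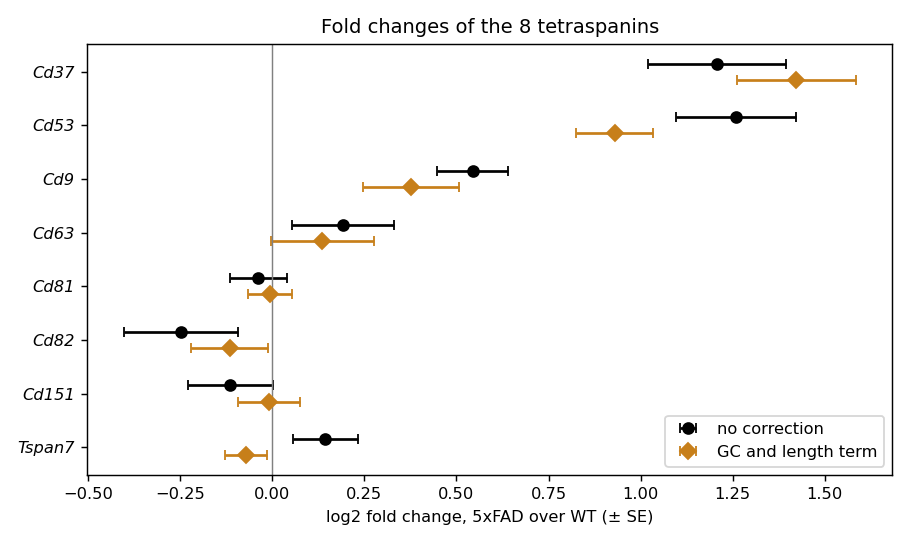
Log2 fold change of 5xFAD over WT with its SE for each of the 8 tetraspanins, without correction (circles) and with the GC and length term (diamonds). Cd37 and Cd53 lie near 1 or above under both, and Tspan7 changes side, from 0.14 to -0.071.

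Levels between genes were compared per kilobase of the longest protein-coding transcript. In 5xFAD the order was Tspan7 (184 ± 18.4 CPM per kb), Cd81 (163 ± 6.20), Cd9 (47.0 ± 3.83), Cd63 (33.4 ± 4.67), Cd53 (11.9 ± 2.21), Cd151 (9.44 ± 1.04), Cd82 (9.11 ± 1.73) and Cd37 (3.00 ± 0.408), each as mean ± SD of 3 libraries. In WT the order was Cd81 (167 ± 9.22 CPM per kb), Tspan7 (166 ± 2.46), Cd9 (32.2 ± 2.04), Cd63 (29.2 ± 3.61), Cd82 (10.9 ± 0.917), Cd151 (10.2 ± 0.317), Cd53 (4.98 ± 0.475) and Cd37 (1.30 ± 0.185). Tspan7 and Cd81, Cd9 and Cd63, and Cd82 and Cd151 did not differ beyond their spread in WT, nor did Tspan7 and Cd81 or Cd82 and Cd151 in 5xFAD. Cd53 stood below Cd82 and Cd151 in WT and was level with them, within the spread, in 5xFAD. Some of these levels rest on the transcript chosen. With the second-longest coding transcript, of 1733 bases in place of 7067, Tspan7 had 749.6 CPM per kb in 5xFAD and 678 CPM per kb in WT. Cd81, with 586 bases in place of 1533, had 427 CPM per kb in 5xFAD and 438 CPM per kb in WT. Cd37, with 1428 bases in place of 2541, had 5.34 CPM per kb in 5xFAD and 2.32 CPM per kb in WT, and was still the lowest of the 8.

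No other tetraspanin gene passed. Of 24 other family genes 22 were in the table and 17 were tested, and none passed in the quasi-likelihood test of edgeR, in limma-voom without quality weights or in DESeq2, whereas the edgeR exact test called 1, Tspan9, and limma-voom with quality weights, which called 52.9% of all genes, called 4. Without 5xFAD replicate 3 the quasi-likelihood test called 3 of the family and 22.9% of all genes. An unadjusted p under 0.05 was reached by 3 of the 17, or about the 18.9% of all genes that reached it. The median log2 fold change was 0.0042, beside -0.0062 over all genes tested. Tspan9, a platelet and neuronal tetraspanin, had 40.8 ± 8.16 CPM in 5xFAD and 57.5 ± 1.83 CPM in WT (SD, n = 3 each; log2 fold change -0.49, edgeR adjusted p = 0.193). Tspan18, known from endothelium, had 59.0 ± 4.09 CPM in 5xFAD and 45.8 ± 4.91 CPM in WT (log2 fold change 0.37, edgeR adjusted p = 0.197). Tspan11 had 0.533 ± 0.0316 CPM in 5xFAD and 1.02 ± 0.375 CPM in WT (log2 fold change -0.92, edgeR adjusted p = 0.255). Tspan12, a co-receptor of Norrin signalling in vessels, was at 0.20 (edgeR adjusted p = 0.326) and at -0.090 with the GC and length term.

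**Figure D4:**
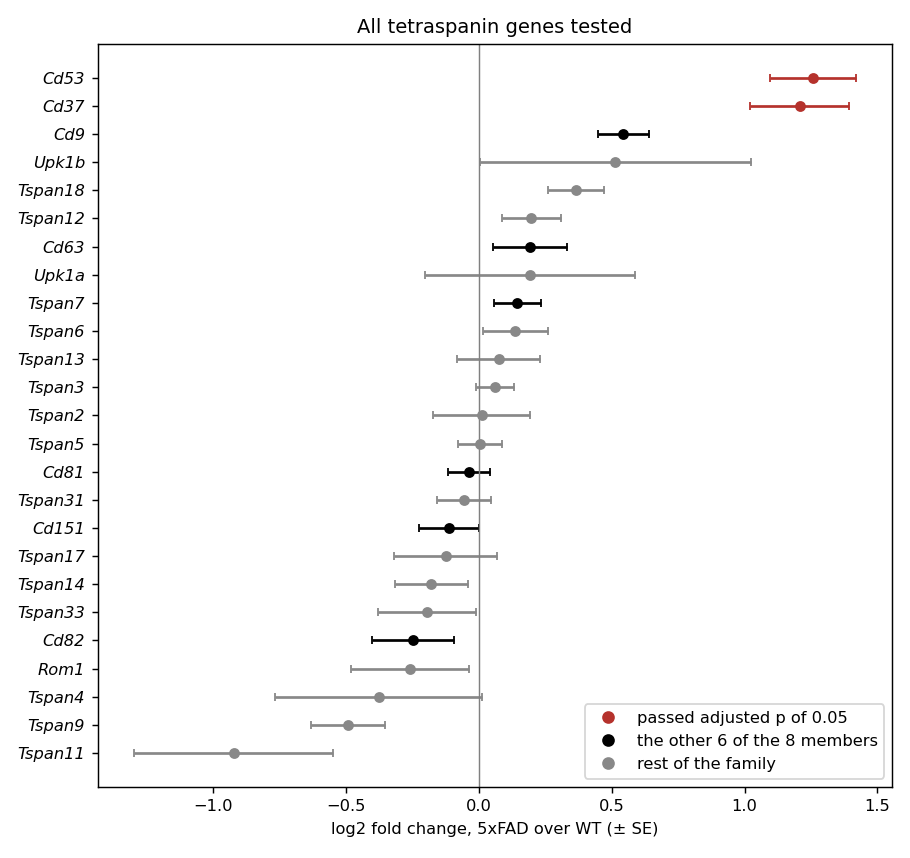
Log2 fold change of 5xFAD over WT with its SE for all 25 tetraspanin genes tested, sorted by size, with genes that passed in red, the other 6 members in black and the rest of the family in grey. Cd53 (1.26) and Cd37 (1.21) stand at the top, apart from Cd9 (0.54), and Tspan11 (-0.92) is lowest.

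Among proteins known to bind or work with tetraspanins, 1 gene rose. Of 22 partner genes 19 were tested, with a median log2 fold change of 0.051. Itgb2, the beta chain of leukocyte integrins such as Mac-1, stood at 20.9 ± 3.81 CPM in 5xFAD and 8.39 ± 0.929 CPM in WT (SD, n = 3 each), or 1.32 higher on the log2 scale (SE 0.17, adjusted p = 0.0193 by edgeR). It is, like Cd37 and Cd53, restricted to leukocytes. It too did not pass without 5xFAD replicate 1 or any one of the WT libraries (adjusted p 0.0896 to 0.154) and passed with the GC and length term (log2 fold change 1.40, edgeR adjusted p = 0.00214). The other 18 partners tested did not pass. Without 5xFAD replicate 3, 8 partners passed, in a fit that called 22.9% of all genes.

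For each member the 2 genes nearest in pattern over the 6 libraries were picked. Likeness was the root mean square distance of log2 CPM, each gene centred on its own mean, among genes whose mean was 1 CPM or more, and it is a description over 6 libraries that share depth and GC trend. Nearest to Cd37 were Fcgr3 (distance 0.073), an Fc gamma receptor, and Ncf1 (0.098), a subunit of the phagocyte NADPH oxidase. Nearest to Cd53 were Kcnj2 (0.079), an inward rectifier potassium channel, and Plek (0.10), the leukocyte and platelet protein pleckstrin. The nearest genes were picked from 13039 candidates, so small distances follow in part from that choice. The members' own SD across libraries, which includes the difference between the groups, was 0.62 for Cd37 and 0.68 for Cd53. Nearest to Cd9, whose SD was 0.31, were Parp14 (0.055) and Lrmp (0.058). Nearest to Tspan7 were Rbfox3 (0.010), the neuronal nuclear antigen NeuN, and Gnaq (0.015), and its SD was 0.12. For Cd63 they were Kbtbd11 (0.029) and Itpripl2 (0.035), and for Cd81 Ksr2 (0.014) and Ptplad1 (0.015). For Cd82 they were Syvn1 (0.026) and Slc9a8 (0.027), and for Cd151 Zfp523 (0.016) and Lonp1 (0.019). All these distances were taken without the GC and length term. With that term Tspan7 and Rbfox3 parted, at log2 fold changes of -0.071 (SE 0.057) and 0.47 (SE 0.17).

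Overlapping genes limit the reading of some members, since the sources used here do not say whether counting used strand. In GENCODE M21 5 of the 8 members overlap a gene on the opposite strand: Cd9 (2 noncoding genes), Cd81, Cd82 and Cd151 (1 noncoding gene each) and Cd37, which shares 13 bases with Tead2, a protein-coding gene. On the same strand Tspan7 overlaps an rRNA gene by 109 bases and Cd82 a miRNA gene by 79 bases. Cd53 and Cd63 overlap no other gene.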

How the data were processed

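Per the labels and the study's methods, RNA of 6 hippocampal samples was depleted of ribosomal RNA and sequenced as paired-end reads. The authors trimmed reads with cutadapt 1.9.3, aligned them to mm10 with HISAT2 2.0.4 and counted them per gene with HTSeq 0.9.1. The sources used here do not name the annotation release. The values taken from the deposited table were raw counts per gene. Another 6 columns, in which the authors give normalized values by sample, were not used. Groups came from sample titles.

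The test was that of edgeR 4.0.16 under R 4.3.3 (filterByExpr with a minimum count of 10, TMM scaling, two-sided quasi-likelihood test on genotype, all 6 libraries, Benjamini-Hochberg over 13937 genes, threshold 0.05). The SE of a log2 fold change is its size over the square root of F. Alternatives were limma-voom (limma 3.58.1) with and without quality weights, the exact test of edgeR, DESeq2 1.42.0, 3 other scalings, 2 other filters, a replicate block, leaving out each library, 5xFAD replicate 3 alone, and a GC and length term. For that term, natural splines (4 degrees of freedom) of GC content and length were fitted to each library and served as its offset. Transcripts and coordinates are from GENCODE M21 (GRCm38, the build of mm10), with values for 98.3% of tested genes. The steps were tested on simulated counts that held no GC or length trend, so the correction of such a trend was not tested.

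Members, gene lists and alternatives were chosen with earlier results of these data known. Genes named were all 8 members, of the other tetraspanin and partner lists those that passed or otherwise the 4 and 3 with the smallest p, the 2 genes nearest each member in pattern, and markers. Promoter sequences were matched by symbol for all 8 members. A marker gene of the lists is not reported here.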

Additional observations from a re-analysis of the deposited data

How the results depend on the processing

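Under 25 alternatives Cd37, Cd53, Cd9 and Cd63 stayed higher in 5xFAD throughout. Cd53 passed in 19 of them (log2 fold change 0.88 to 1.38, adjusted p 4.26e-09 to 0.132), Cd37 in 16 (1.14 to 1.54, 4.07e-06 to 0.269) and Cd9 in 7 (0.23 to 0.68, 1.30e-04 to 0.516). With library totals 69 genes and 1 member passed, since Cd37 did not (adjusted p = 0.0618). DESeq2 called 507 genes, 3 members and 2 partners, and the edgeR exact test 572 genes, 3 members, 1 other tetraspanin and 2 partners. Limma-voom with library quality weights called 7378 genes, 7 members, 4 other tetraspanins and 11 partners. The GC and length term gave 171 genes and the same 2 members. The cause of these differences was not tested. Leaving out 1 library gave 12 to 3229 genes, 0 to 3 members, 0 to 3 other tetraspanins and 0 to 8 partners, and with the GC and length term as well 47 to 1241 genes (49 without 5xFAD replicate 1, 260 without 5xFAD replicate 2), 0 to 3 members, 0 to 2 other tetraspanins and 1 to 2 partners.

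Replicate numbers are shared by the groups but did not pair the libraries: same-numbered libraries had correlations of their deviations from the group means of -0.024 to -0.017, and none of the 6 correlated best with its own number. With the replicate block 20 genes, 0 members and 0 partners passed (adjusted p = 0.0937 for Cd53, 0.187 for Cd37 and 0.07 for Itgb2). With the block and the GC and length term 110 genes passed, Cd37 and Cd53 (adjusted p = 0.0239 and 0.0195) among them.

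Among the 15 genes followed, directions turned only in genes that did not pass. With 5xFAD replicate 3 alone Cd81 was at 0.023, Cd151 at 0.066 and Cd82 at 0.025. Without 1 library Cd81 lay between -0.066 and 0.0082, or at 0.035 once WT replicate 2 was left out under the GC and length term, while under that term Cd151 reached 0.021 without 5xFAD replicate 1 and 0.0055 without WT replicate 2. With the GC and length term Tspan7 was at -0.071 (-0.072 with the block) and Tspan12 at -0.090 (-0.095 with the block), and without 1 library as well Tspan7 was at -0.11 to -0.028 (-0.078, -0.063, -0.076 and -0.079 between) and Tspan12 at -0.20 to -0.032 (-0.047, -0.11, -0.085 and -0.087 between). Depth limits Cd37, with 65 to 205 counts per library, and Tspan11, with 9 to 30.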
